A study of Homo sapiens with 3 samples.

Results

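Levels are given for 32 genes that encode RNA polymerase I and the factors that build ribosomes, among 60554 genes whose RNA was counted in KYSE30, an established line of human squamous carcinoma cells of the esophagus. They were taken as a list of symbols, and all 32 matched a row of the count table through the gene identifier without its version. The list was not picked by a measured value, although it was drawn up with earlier results of these data known. Each member passed the filter on low counts, so no member is missing below.

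There were 3 libraries, each from 1 stable line. A pair of lines carried a different short hairpin RNA (shRNA 1 or shRNA 2) against the small nucleolar RNA (snoRNA) SNORD12B, which is of the box C/D class, in the pLKO.1-blast vector. The control line carried, per the treatment protocol, a scrambled shRNA with no target, and its genotype label reads vector. All lines were grown in RPMI-1640 with 10% fetal bovine serum, exposed for 24 hours to virus made in human embryonic kidney 293T cells, then kept for 2 weeks in blasticidin at 5 ug/mL. The labels do not tell whether a line is a clone or a pool. As each line has 1 library, a difference between lines cannot be told apart from a difference between cultures.

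Ribosomes are assembled in the nucleolus. RNA polymerase I transcribes the long precursor of the ribosomal RNAs (rRNAs), snoRNA-protein particles (snoRNPs) modify it, and large sets of assembly factors cut, fold and package it into the small (40S) and large (60S) subunits. Box C/D snoRNAs guide methylation of the rRNA sugar, and box H/ACA snoRNAs guide pseudouridylation. The genes of this programme are widely known to be transcribed together in growing cells, and MYC is among the factors known to drive them.

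Total counts were 15146805 and 17336936 under the labels shRNA 1 and shRNA 2 and 15473922 in the control. SNORD12B itself had 15 and 1 counts under the labels shRNA 1 and shRNA 2 and 7 in the control. Its ratio to the control was 2.17 (95% exact conditional interval 0.831 to 6.28) under the label shRNA 1 and 0.126 (0.0028 to 0.983) under the label shRNA 2. The library labelled shRNA 1 thus had no lower count of its target. This goes against its label as far as so few reads of a short RNA can tell. Some snoRNAs that were not targeted were also uncounted under the label shRNA 2. In the order shRNA 1, shRNA 2 and control, SNORD19 had 4, 0 and 5 counts and SNORD69 had 3, 0 and 3. SNORD53B, at 1, 2 and 1, was counted most under that label. So few counts leave the knockdown unchecked in both shRNA libraries, and each direction given below rests on an unchecked knockdown. Of 11 epithelial markers, 10 passed the filter on low counts, with a median log2 ratio to the control of -0.64 under the label shRNA 1 and -0.19 under the label shRNA 2. Their levels in CPM, which are counts scaled to a fixed library total, summed to 8238, 10040 and 9351 CPM under the labels shRNA 1 and shRNA 2 and in the control. This sum does not show how most of the markers lay. Of the 10, 7 were highest in the control, where 27.0% of tested genes were, and 1 was lowest in it. By the mean of both ratios the highest were the keratin genes KRT18 and KRT8, and KRT8 stood at 4335, 4340 and 4366 CPM in that order. The lowest were SOX2, a transcription factor of squamous cells, at 12.2, 38.9 and 104 CPM, and the keratin gene KRT17 at 15.45, 52.95 and 94.59 CPM, so both stood below the control in each shRNA library. Their unadjusted p was 0.00438 and 0.0282, and the adjusted p was 1 for both (edgeR). The basal keratin gene KRT5 had at most 0.197 CPM in any library. Of the markers of other cell types, COL1A1 was the only one of 7 fibroblast genes, CD68 the only one of 6 immune genes and CDH5 and VWF the only ones of 4 endothelial genes that passed the filter, and DCN, LUM, PDGFRA and KDR were counted 0 times in each library. The genes that passed summed to 9.34, 13.2 and 15.9 CPM for fibroblasts, 1.12, 1.84 and 1.76 CPM for immune cells and 0.921, 5.75 and 3.71 CPM for endothelium, in the order shRNA 1, shRNA 2 and control. The part of these markers in the results below was not tested.

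The members lay on opposite sides of the control in the 2 shRNA libraries. Their median log2 ratio to the control was 0.54 under the label shRNA 1, against 0.01 for all 17801 tested genes, and -0.56 under the label shRNA 2, against 0.00 for all tested genes. Both ratios share the 1 control. Above the control under the label shRNA 1 were 31 members, where 51.5% of all tested genes were, and below it under the label shRNA 2 were 29, where 50.3% were. UBTF was the exception in the first, and UBTF, GAR1 and PPAN in the second. Under the label shRNA 1, 12 members stood at least 1.5-fold above the control, where 10.8% of all tested genes did, and 0 stood 1.5-fold below it, where 12.7% did. Under the label shRNA 2, 13 members stood at least 1.5-fold below the control, where 9.92% of tested genes did, and 0 stood 1.5-fold above it, where 9.38% did. Placed by CPM, the control was the middle of the 3 libraries with the label shRNA 1 above it for 29 of 32 members, a place it had for 23.3% of tested genes and for 25.1% of those with at least 5 CPM in some library. It was in the middle with the label shRNA 2 above it for 1 member, against 21.5% of tested genes, lowest for 2 members, against 28.2%, and highest for 0 members, against 27.0%. With 1 library a line these are sizes with no test.

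**Figure D1:**
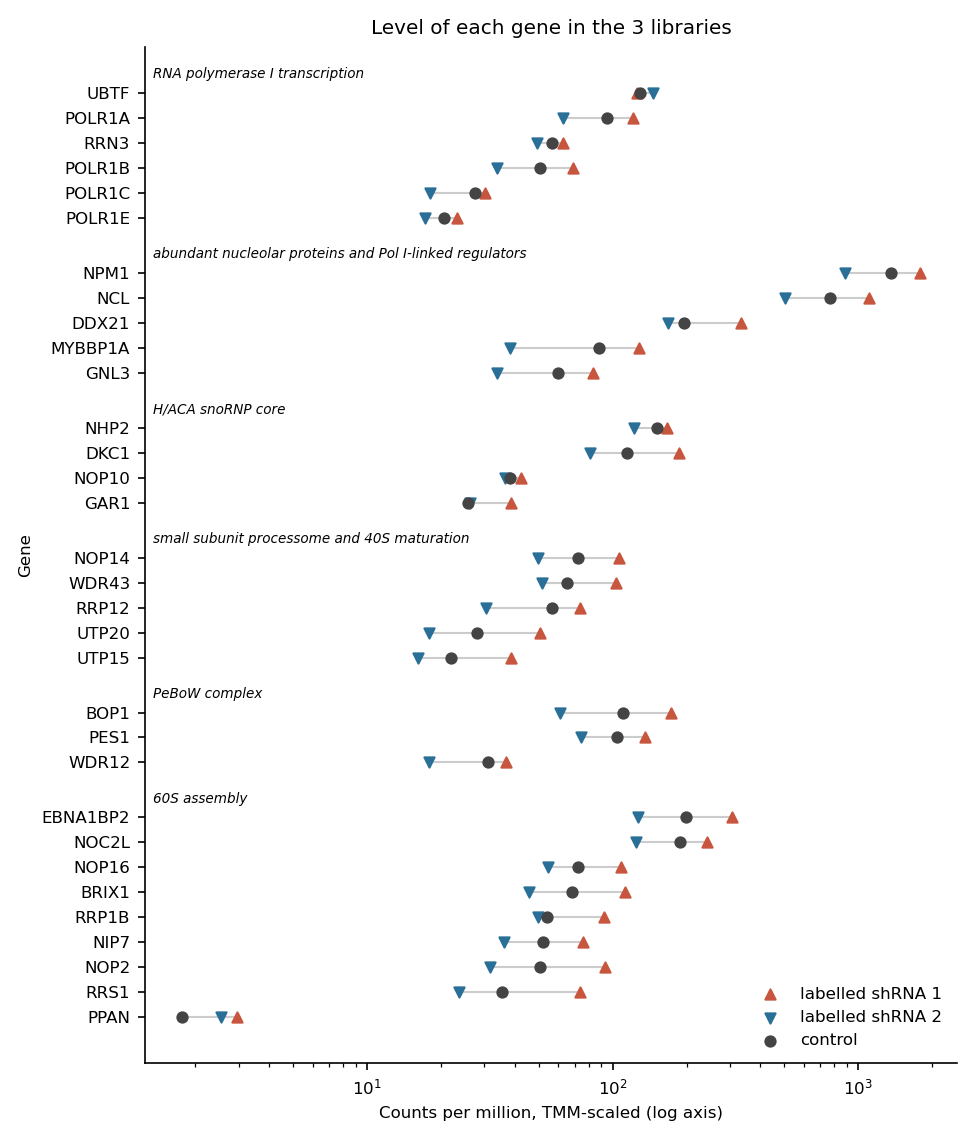
Level in CPM of each of the 32 genes on a log axis, grouped by role, with one upward triangle for the library labelled shRNA 1, one downward triangle for the library labelled shRNA 2 and one circle for the control. For 29 genes the circle lies between the triangles with shRNA 1 to the right; UBTF, GAR1 and PPAN are the exceptions.

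With both shRNA libraries set against the control, no member passed the test. The quasi-likelihood test of edgeR on all 17801 tested genes called 0 members higher and 0 lower at an adjusted p under 0.05, where 0.0% of tested genes were called in each direction. At an unadjusted p under 0.05 it gave 0 members, where 0.41% of tested genes were higher and 0.921% lower, and the smallest unadjusted p of a member was 0.326, for PPAN (edgeR). The median fitted log2 fold change of the members was 0.08, against 0.01 for all tested genes. The only replicate spread in this test is that between the 2 shRNA libraries, which for most of these genes lay on opposite sides of the control. A missing call is therefore no sign that the genes did not differ.

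Set directly against each other, the shRNA libraries were far apart in these genes, a comparison in which the control plays no part. The median log2 ratio of the library labelled shRNA 1 over the library labelled shRNA 2 was 1.02, against 0.00 for all tested genes. At least 1.5-fold higher under the label shRNA 1 were 25 members, where 14.8% of tested genes were, and 0 were as far below, where 15.8% were. In the same comparison 18 members were at least 2-fold higher, where 5.54% were. Among tested genes with at least 5 CPM in some library, 11.9% were 1.5-fold higher and 3.3% were 2-fold higher. The exact interval of the ratio lay above 1 for 30 members, below 1 for UBTF, and held 1 for PPAN. Such intervals narrow as counts rise, and the share of all tested genes whose interval leaves out 1 was not computed. Summed over the 32 members, the level was 6133 CPM under the label shRNA 1, 3032 CPM under the label shRNA 2 and 4391 CPM in the control. These values are shares of a library, so an amount per cell cannot be read from them, and in bulk RNA fewer expressing cells and less RNA per cell cannot be told apart.

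**Figure D2:**
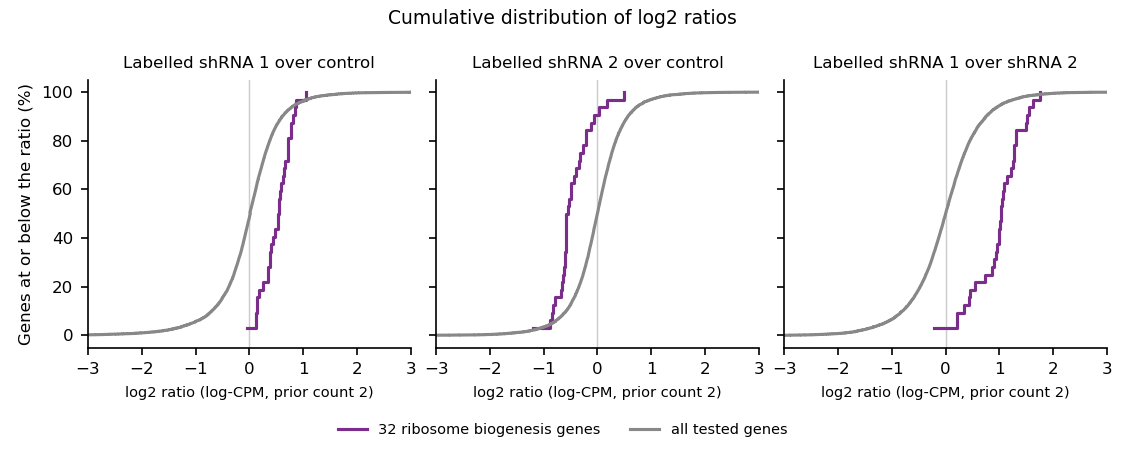
Cumulative share of genes (%) at or below each log2 ratio, for the library labelled shRNA 1 over the control, the library labelled shRNA 2 over the control, and shRNA 1 over shRNA 2, for the 32 members in purple and all 17801 tested genes in grey. The purple curve is shifted to the right in both panels with shRNA 1 on top (medians 0.54 and 1.02) and to the left for shRNA 2 over the control (median -0.56).

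The promoters of several members hold the canonical E-box CACGTG, the motif bound by MYC with MAX and by other factors of the same class. RefSeq promoter windows (GRCh38.p14), from 250 bases before to 50 after a start, were matched by symbol for 27 of the 32 members; POLR1E, RRP12, BOP1, RRS1 and RRP1B had no entry. The motif is its own reverse complement, so both strands were read at once, and a gene counted if any of its listed starts had it. It was present for 11 of the 27 members (40.7%), for 12.2% of 11607 tested genes with a window and for 8.77% of 27305 genes in the table. The share was not particular to the members. It was 42.5% of 40 other small subunit factors, 34.1% of 44 other 60S factors and 37.5% of 16 genes of RNA polymerase III and its factors. Other related lists had a low share. It was 7.14% of 14 other RNA polymerase I subunits and factors, 0.0% of 7 snoRNP assembly factors and 15.4% of 13 genes of the RNA exosome with XRN2. Among 11 proliferation genes it was 27.3%. Shown are the E-box sites, in capitals with 10 bases on each side, of 3 members with a wide gap between the shRNA libraries and of NOP10, which has 2 such sites and the narrowest gap among the E-box members, each read on the strand of its gene.
MYBBP1A, chr17:4555342-4555367, minus strand: ggccggagcaCACGTGtttcgtgttt
UTP20, chr12:101280085-101280110, plus strand: tttttccgtcCACGTGacccactcag
GNL3, chr3:52686028-52686053, plus strand: cttcagttcaCACGTGgcgccagcgg
NOP10, chr15:34343291-34343316, minus strand: agggacactcCACGTGttttagcctg
NOP10, chr15:34343132-34343157, minus strand: aattgacgaaCACGTGacgcggtcgg

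The E-box begins 27 bases after the start in MYBBP1A, 10 bases before it in UTP20, 6 bases after it at one of the starts of GNL3, and 170 and 11 bases before it in NOP10. The log2 ratio of the library labelled shRNA 1 over the library labelled shRNA 2 had a median of 1.09 (0.22 to 1.75) over the 11 members with the motif and 1.00 (-0.21 to 1.30) over the 16 without it. The ranges overlap over most of their length, and this split has no test. The other E-box members were NOP2, EBNA1BP2, NOP14, WDR43, DDX21, PES1 and GAR1.

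Members of the RNA polymerase I machinery had the smallest gap under the label shRNA 1, with a median log2 ratio to the control of 0.16, against -0.42 under the label shRNA 2 (6 genes). None of the 6 stood 1.5-fold above the control under the label shRNA 1. Under the label shRNA 2, POLR1A and POLR1C were the 2 at least 1.5-fold below the control, with POLR1B just short of that distance. POLR1A, the largest catalytic subunit (chromosome 2, 86020216 to 86106155, minus strand, hg38), stood at 121 CPM with the label shRNA 1, 63.1 CPM with the label shRNA 2 and 94.8 CPM in the control. POLR1B, the second catalytic subunit, stood at 68.9 and 33.8 CPM under the labels shRNA 1 and shRNA 2 and at 50.7 CPM in the control. Both catalytic subunits were thus highest under the label shRNA 1 and lowest under the label shRNA 2, with ratios of shRNA 1 over shRNA 2 of 1.91 (95% exact conditional interval 1.77 to 2.06) and 2.04 (1.84 to 2.26).

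POLR1C, a subunit that RNA polymerase III also contains, had 458 and 313 counts under the labels shRNA 1 and shRNA 2 and 423 in the control, or 30.1, 18.0 and 27.5 CPM. Its ratio to the control was 1.09 under the label shRNA 1, with an interval that holds 1, and 0.654 (0.563 to 0.759) under the label shRNA 2. The fitted log2 fold change of the pair over the control was -0.20 (SE 0.41, unadjusted p = 0.645, edgeR). Exons of LRRC73 and of a gene with no symbol cover 17.4% of its exonic bases from the other strand, so part of its count is uncertain. POLR1E, which encodes the subunit PAF53, stood at 23.3 and 17.2 CPM under the labels shRNA 1 and shRNA 2 and at 20.6 CPM in the control.

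Under the label shRNA 2 the initiation factors lay closest to the control of these 6 genes, and under the label shRNA 1 POLR1C lay between them. RRN3, which brings RNA polymerase I to the promoter, stood at 62.8 and 49.3 CPM under the labels shRNA 1 and shRNA 2 and at 56.9 CPM in the control; 4 annotated RRN3 pseudogenes together carried 19.4% as many counts as the gene, so its reads may be shared. UBTF, the upstream binding factor that coats the active rRNA genes (ENSG00000108312, chromosome 17, 44205033 to 44221626, minus strand), was the exception in direction. It had 1916 and 2539 counts under the labels shRNA 1 and shRNA 2 and 1985 in the control, or 126, 146 and 129 CPM. Its level was highest under the label shRNA 2, with a ratio to the control of 1.13 (1.07 to 1.2), and the ratio of shRNA 1 over shRNA 2 was 0.863 (0.813 to 0.916). The fitted log2 fold change over the control was 0.07 (SE 0.31, unadjusted p = 0.816, edgeR).

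NPM1 and NCL, which encode the abundant nucleolar proteins nucleophosmin and nucleolin, were the most counted of 5 nucleolar proteins and regulators linked to RNA polymerase I. In that group 4 genes stood at least 1.5-fold below the control under the label shRNA 2, and DDX21 was the 1 gene as far above it under the label shRNA 1. Per transcript length, NPM1 stood at 1443 and 702 TPM (a level per transcript length, scaled to a fixed library total) under the labels shRNA 1 and shRNA 2 and at 1052 TPM in the control, and NCL at 494, 222 and 328 TPM. NHP2 stood at 341, 247 and 299 TPM, so NCL was second to NPM1 under the label shRNA 1 and in the control and below NHP2 under the label shRNA 2. In counts, NPM1 (ENSG00000181163, chromosome 5, 171387116 to 171411137, plus strand) had 27199, 15328 and 20868 in the same order, and its ratio to the control was 1.32 (1.29 to 1.34) under the label shRNA 1 and 0.649 (0.636 to 0.663) under the label shRNA 2. NCL (chromosome 2, 231453531 to 231483641, minus strand) had ratios of 1.45 (1.41 to 1.48) and 0.656 (0.638 to 0.675). For these deeply counted genes the counting interval is narrow against the gap between libraries. The 49 annotated NPM1 pseudogenes together carried 2.25% as many counts as NPM1.

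MYBBP1A showed the widest gap. The gene (ENSG00000132382, chromosome 17, 4538897 to 4555631, minus strand) encodes a MYB-binding nucleolar protein that takes part in rRNA transcription and processing. It had 1955 counts with the label shRNA 1, 664 with the label shRNA 2 and 1354 in the control, or 129, 38.2 and 88.1 CPM. The ratio to the control was 1.46 (1.36 to 1.56) under the label shRNA 1 and 0.433 (0.394 to 0.476) under the label shRNA 2, which made it the only member at least 2-fold below the control there, where 3.46% of tested genes were. Between the shRNA libraries the ratio was 3.37 (3.08 to 3.68). The fitted log2 fold change of the pair was -0.08 (SE 0.57, unadjusted p = 0.89, edgeR).

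DDX21, a helicase that links RNA polymerase I transcription with rRNA processing, lay further from the control under the label shRNA 1. It had 5054, 2911 and 2995 counts under the labels shRNA 1 and shRNA 2 and in the control. This was 332 and 167 CPM under the labels shRNA 1 and shRNA 2 and 195 CPM in the control, so the libraries stood at 1.71 (1.63 to 1.78) and 0.859 (0.816 to 0.904) times the control. Its fitted log2 fold change was 0.36 (SE 0.41, unadjusted p = 0.409, edgeR). GNL3, the nucleolar GTPase nucleostemin, lay further from it under the label shRNA 2, at 83.6 and 33.8 CPM under the labels shRNA 1 and shRNA 2 and 60.2 CPM in the control.

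The 4 genes of the H/ACA snoRNP core lay at different distances from the control. Their median log2 ratio was 0.36 under the label shRNA 1 and -0.19 under the label shRNA 2, and DKC1 was the 1 gene at least 1.5-fold above the control in either, with GAR1 just short of it under the label shRNA 1. DKC1, the pseudouridine synthase dyskerin (chromosome X, 154762742 to 154777689, plus strand), stood at 187 and 80.8 CPM under the labels shRNA 1 and shRNA 2 and at 114 CPM in the control. Its partner NHP2 had 167, 122 and 152 CPM in that order, although RMND5B covers 27.42% of its exonic bases from the other strand. NOP10, the smallest core protein, had 643, 633 and 588 counts, or 42.3, 36.4 and 38.3 CPM, and both its ratios to the control had intervals that hold 1 (0.986 to 1.24 and 0.849 to 1.07). The fitted log2 fold change of NOP10 was 0.04 (SE 0.35, unadjusted p = 0.914, edgeR). The ratio of shRNA 1 over shRNA 2 was thus 2.31 (2.17 to 2.47) for DKC1, 1.36 (1.29 to 1.45) for NHP2 and 1.16 (1.04 to 1.3) for NOP10, with intervals that do not overlap for DKC1 and either partner. On the same strand, SNORA36A, SNORA56 and a gene with no symbol share 5.85% of the exonic bases of DKC1.

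GAR1, the remaining core protein, stood at 38.5 CPM under the label shRNA 1, 26.2 CPM under the label shRNA 2 and 25.7 CPM in the control. Its ratio to the control was 1.5 (1.31 to 1.7) under the label shRNA 1 and 1.02 (0.89 to 1.17) under the label shRNA 2. With PPAN it was thus 1 of 2 members whose level was lowest in the control, and its counts were 585, 456 and 395. The fitted log2 fold change was 0.33 (SE 0.39, unadjusted p = 0.42, edgeR).

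All 5 factors of the small subunit had the control in the middle, with median log2 ratios of 0.66 under the label shRNA 1 and -0.54 under the label shRNA 2. Each stood at least 1.5-fold higher under the label shRNA 1 than under the label shRNA 2. UTP20, a large scaffold of the processome that assembles on the nascent rRNA (chromosome 12, 101280109 to 101386616, plus strand), stood at 50.8 and 17.8 CPM under the labels shRNA 1 and shRNA 2 and at 28.1 CPM in the control. UTP15, a processome subunit also needed for rRNA transcription, stood at 38.6, 16.2 and 22.0 CPM. WDR43, of the same subcomplex, stood at 103, 51.4 and 65.2 CPM and NOP14, another processome factor, at 106, 49.7 and 72.5 CPM, in that order. UTP20 and UTP15 had ratios of shRNA 1 over shRNA 2 of 2.85 (2.5 to 3.26) and 2.39 (2.07 to 2.76). NOP14 is overlapped on 17.1% of its exonic bases by its antisense gene NOP14-AS1.

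RRP12, a repeat protein known from yeast to act in export of the subunits, lay further from the control under the label shRNA 2. It had 1119, 532 and 870 counts under the labels shRNA 1 and shRNA 2 and in the control. This was 73.6 and 30.6 CPM under the labels shRNA 1 and shRNA 2 and 56.6 CPM in the control, with ratios of 1.3 (1.19 to 1.42) and 0.54 (0.484 to 0.603). From the other strand, a gene with no symbol covers 6.09% of the exonic bases of RRP12. Its fitted log2 fold change was -0.12 (SE 0.48, unadjusted p = 0.806, edgeR).

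**Figure D3:**
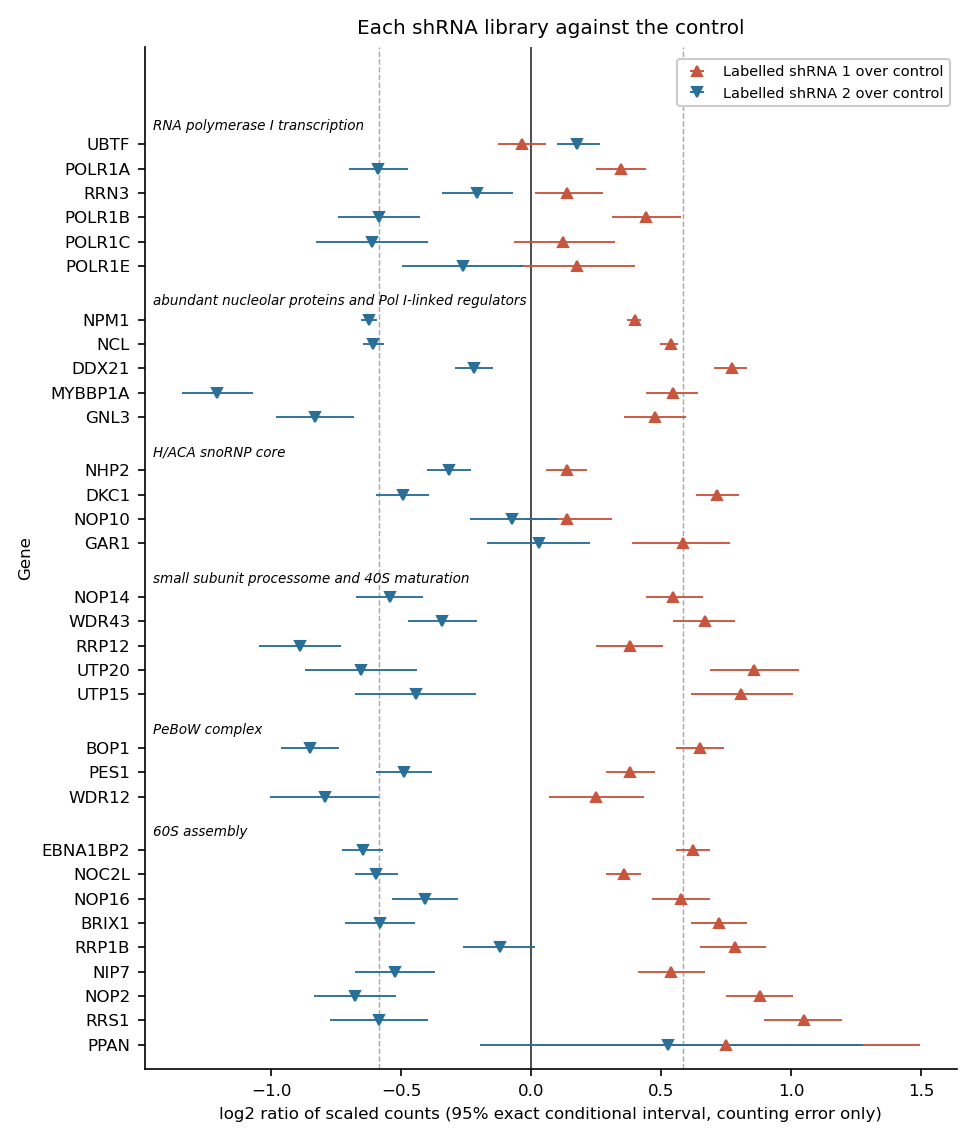
The log2 ratio of scaled counts of each gene for the library labelled shRNA 1 (upward triangles) and the library labelled shRNA 2 (downward triangles) over the control, with 95% exact conditional intervals that cover counting error only; dashed lines mark 1.5-fold. The exact interval lies above 1 on the linear scale for 28 genes under the label shRNA 1 and below 1 for 27 under the label shRNA 2. The share of all tested genes with such intervals was not computed.

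PES1, BOP1 and WDR12 form the PeBoW complex, which is needed for processing of the 60S rRNA precursor. Their median log2 ratio was 0.38 under the label shRNA 1 and -0.79 under the label shRNA 2. BOP1 had the widest gap of the complex, at 172 and 61.0 CPM under the labels shRNA 1 and shRNA 2 and 110.0 CPM in the control, and its ratio of shRNA 1 over shRNA 2 was 2.83 (2.63 to 3.04). PES1 had 135, 74.2 and 104 CPM in that order, with a ratio of 1.82 (1.7 to 1.95), and TCN2 covers 5.4% of its exonic bases from the other strand. WDR12 had 562 and 311 counts under the labels shRNA 1 and shRNA 2 and 476 in the control, giving 1.19 (1.05 to 1.35) and 0.577 (0.499 to 0.667) times the control. Its fitted log2 fold change was -0.18 (SE 0.46, unadjusted p = 0.706, edgeR). All 3 subunits had the same order of libraries, and WDR12 lay closer to the control under the label shRNA 1 than under the label shRNA 2.

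The 60S assembly factors had the largest shift of the groups under the label shRNA 1, with a median log2 ratio to the control of 0.71, against -0.58 under the label shRNA 2 (9 genes). The 0.71 is the value of PPAN, a gene with few counts and an uncertain level, and the small subunit group lay close to it at 0.66. In this group 6 genes stood at least 1.5-fold above the control under the label shRNA 1 and 3 at least 1.5-fold below it under the label shRNA 2. RRS1, which helps to load the 5S particle (ENSG00000179041), had 1117, 412 and 546 counts under the labels shRNA 1 and shRNA 2 and in the control, or 73.4, 23.7 and 35.5 CPM. It was the only member at least 2-fold above the control under the label shRNA 1 (2.07, 1.86 to 2.29), where 3.74% of tested genes were, and stood at 0.667 (0.585 to 0.759) times the control under the label shRNA 2. The fitted log2 fold change was 0.45 (SE 0.58, unadjusted p = 0.455, edgeR), and ADHFE1 shares 11.37% of its exonic bases on the same strand.

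NOP2, an rRNA cytosine methyltransferase (ENSG00000111641, chromosome 12, 6556863 to 6568691, minus strand), had 1417, 552 and 780 counts in the same order, or 93.2, 31.7 and 50.8 CPM. Its ratio of shRNA 1 over shRNA 2 was 2.94 (2.66 to 3.24), wider than for any member but MYBBP1A and RRS1, and its fitted log2 fold change over the control was 0.30 (SE 0.55, unadjusted p = 0.599, edgeR). BRIX1 and EBNA1BP2, both factors of early 60S particles, stood at 113 and 308 CPM under the label shRNA 1, at 45.6 and 127 CPM under the label shRNA 2 and at 68.2 and 199.8 CPM in the control. From the other strand, CFAP57 covers 18.76% of the exonic bases of EBNA1BP2, RAD1 9.62% of BRIX1, ARL10 and HIGD2A 19.95% of NOP16, and COG8 7.27% of NIP7. NOP16 stood at 108, 54.4 and 72.2 CPM and NIP7 at 75.7, 36.3 and 52.1 CPM, in the order shRNA 1, shRNA 2 and control. These 4 assembly factors again had the control between the shRNA libraries.

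NOC2L, whose yeast counterpart escorts 60S particles and which also binds p53 in human cells, stood at 242 and 125 CPM under the labels shRNA 1 and shRNA 2 and at 189 CPM in the control. SAMD11 covers 6.82% of its exonic bases from the other strand, and annotated NOC2L pseudogenes carried 7.97% as many counts as the gene. RRP1B departed from the control only under the label shRNA 1, as far as counting error tells. It had 1404, 861 and 827 counts under the labels shRNA 1 and shRNA 2 and in the control, which gave 1.72 (1.57 to 1.87) and 0.92 (0.835 to 1.01) times the control. RRP1B encodes a nucleolar protein that binds protein phosphatase 1, and its fitted log2 fold change was 0.40 (SE 0.42, unadjusted p = 0.363, edgeR).

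PPAN, an assembly factor of the 60S subunit, was by far the least counted member, at 45 and 44 counts under the labels shRNA 1 and shRNA 2 and 27 in the control, or 2.96, 2.53 and 1.76 CPM. On the same strand, P2RY11 and the read-through gene PPAN-P2RY11 share 59.78% of its exonic bases, and reads that fall on several genes are by default not counted by the program named in the file header, so its level is uncertain. The ratio to the control was 1.68 (1.02 to 2.82) under the label shRNA 1 and 1.44 (0.872 to 2.42) under the label shRNA 2, and the fitted log2 fold change was 0.64 (SE 0.62, unadjusted p = 0.326, edgeR). PPAN and GAR1 were the members with both shRNA libraries above the control.

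Some members carry snoRNA genes in their introns or exons. Within DKC1, GNL3, NCL, PPAN and WDR43 lie 16 annotated snoRNA genes, of which 6 had any count and none more than 7 in a library. SNORD19C in GNL3 had 3 and 0 counts under the labels shRNA 1 and shRNA 2 and 7 in the control. A count of 0 allows up to 0.173 CPM in the library labelled shRNA 2, so levels of hosted snoRNAs could not be compared with those of their host genes at this depth.

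Other genes of the same programme, from lists that do not include the 32 members, had medians on the same sides of the control. Of 46 other factors of the small subunit, 14 stood at least 1.5-fold above the control under the label shRNA 1 and 9 at least 1.5-fold below it under the label shRNA 2, with median log2 ratios of 0.43 and -0.32. Of 48 other factors of the 60S subunit, 11 and 6 did, with medians of 0.43 and -0.29. Among all tested genes 10.8% and 9.92% stood as far, so the 6 of 48 lie near the second share. In these lists the control was in the middle with shRNA 1 above it for 36 and 38 genes, a place it had for 23.3% of tested genes. No gene of the lists outside the 32 members was called by edgeR's quasi-likelihood test over all genes.

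Among the other small subunit factors, ESF1 and RIOK2 were highest by the mean of both ratios of the genes with at least 5 CPM in some library, and ESF1 stood at 46.1 and 23.9 CPM under the labels shRNA 1 and shRNA 2 and 21.6 CPM in the control. WDR3 and NOL6, both processome components, were lowest of the same genes, and NOL6 had 57.5, 18.1 and 39.9 CPM in that order. The box C/D core, which binds snoRNAs of the targeted class, had the same order of libraries in each of its 4 genes. NOP56 stood at 245, 75.8 and 130 CPM, NOP58 at 112, 53.2 and 63.3 CPM, the methyltransferase gene FBL at 207, 119.9 and 164 CPM and SNU13 at 80.6, 55.1 and 73.6 CPM, in the order shRNA 1, shRNA 2 and control. The snoRNP assembly factors had medians of 0.27 and -0.44 (10 genes).

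Medians were closer to the control in other lists. The other RNA polymerase I subunits and factors, 14 of 15 of which passed the filter, had median log2 ratios of 0.28 under the label shRNA 1 and -0.20 under the label shRNA 2, with 2 genes 1.5-fold above the control in the first and 0 genes 1.5-fold below it in the second. Those distances were reached by 10.8% and 9.92% of all tested genes. RNA polymerase III and its factors lay at 0.17 and -0.16 (20 genes), and POLR3G, an alternative subunit of that polymerase, stood at 20.3 and 5.92 CPM under the labels shRNA 1 and shRNA 2 and 8.79 CPM in the control. The RNA exosome with XRN2, which trims rRNA precursors, lay at 0.22 and -0.22 (15 genes). The genes of the 5S particle and p53 axis lay at -0.21 and -0.18 (6 genes), with RPL5 at 984 and 856 CPM under the labels shRNA 1 and shRNA 2 and 1174 CPM in the control.

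**Figure D4:**
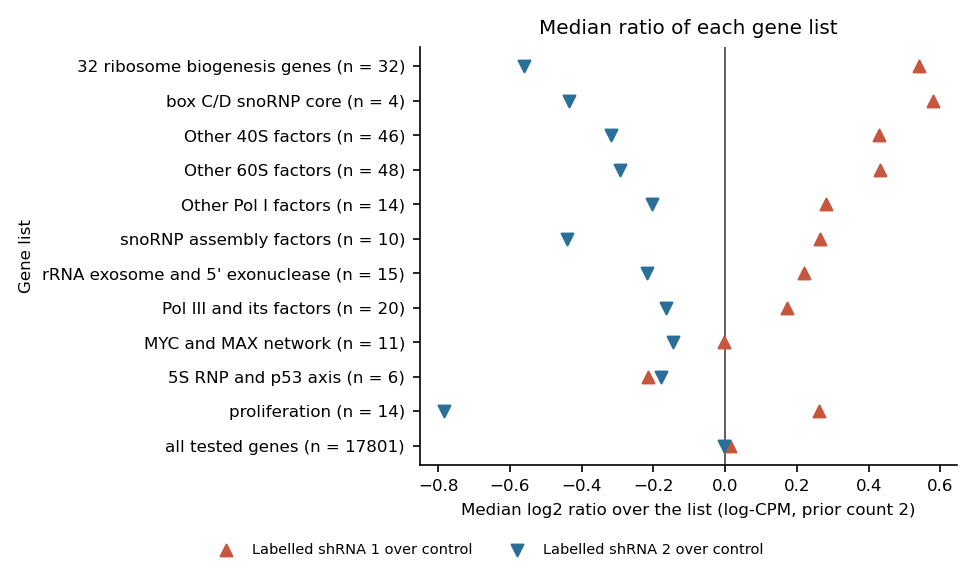
Median log2 ratio to the control of each gene list (number of tested genes in brackets), with an upward triangle for the library labelled shRNA 1 and a downward triangle for the library labelled shRNA 2. The 32 members lie at 0.54 and -0.56, all tested genes at 0.01 and 0.00, and the 5S particle and p53 axis genes at -0.21 and -0.18.

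MYC and most genes of proliferation were also lower under the label shRNA 2 than in the control, and their part in the shift of the members was not tested. MYC stood at 143.5 CPM under the label shRNA 1, 74.0 CPM under the label shRNA 2 and 131 CPM in the control, so its log2 ratio to the control was 0.13 and -0.83. The MYC and MAX network as a whole lay at 0.00 and -0.15 (11 tested of 12 genes). Its lowest genes by the mean of both ratios were the MYC family gene MYCL and MXI1, a repressor that pairs with MAX. MYCL stood at 3.68, 7.42 and 12.9 CPM and MXI1 at 10.3, 18.4 and 23.8 CPM, in the order shRNA 1, shRNA 2 and control. They were the 2 genes of this network that were highest in the control, and 1 gene was lowest in it. Of 14 proliferation genes, 2 stood at least 1.5-fold above the control under the label shRNA 1 and 8 at least 1.5-fold below it under the label shRNA 2, with medians of 0.26 and -0.78. Among all tested genes 10.8% and 9.92% stood as far. These 8 included all 6 genes of the replicative helicase, for which MCM2 stood at 189.6 and 77.0 CPM under the labels shRNA 1 and shRNA 2 and at 189.2 CPM in the control. For 12 of the 14 genes, other mitotic genes among them, the control was in the middle with the label shRNA 1 above it. That place was held for 23.3% of tested genes. MKI67 and TOP2A were the 2 exceptions, both lowest in the control, and TOP2A stood at 552, 602 and 448 CPM in the order shRNA 1, shRNA 2 and control.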

How the data were processed

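RNA sequencing gave 1 library for each of 3 KYSE30 lines. The authors deposited raw counts per gene, which they made, per the file headers, with featureCounts 1.6.4 on an hg38 annotation with strand option 1. The library kit is not given, so strand is unsure. The submitters' processing notes name TopHat2, HTSeq and hg19 instead. All 52179 identifiers shared with GENCODE 29 in the same version had equal coordinates there, so coordinates are in hg38. Of 60554 genes, 56558 matched a symbol. The table also gives each gene's exon length in bases, used for TPM.

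The analysis used edgeR 4.0.16 in R 4.3.3. TMM scaling on all counts was applied to the 17801 genes that passed filterByExpr (factors 1.004, 1.003 and 0.993 for shRNA 1, shRNA 2 and control). The pair of shRNA libraries was compared with the control by the quasi-likelihood F test, two-sided, Benjamini-Hochberg adjusted over all genes at 0.05, with 1 residual and 8.35 prior degrees of freedom; the control is assumed to vary like the pair. The SE is the log2 fold change over the square root of F. Single-library log2 ratios come from edgeR's log-CPM (prior count 2). Intervals of count ratios are exact conditional intervals at 95% (SciPy 1.17.1) on scaled totals; like the limit of 3 counts for a count of 0, they cover counting error only. Antisense partners, same-strand neighbours and pseudogenes make some counts uncertain. P-values rest on how far the 2 shRNA lines differ and on no replicate cultures. Members and lists were chosen with earlier results of these data known. Every member is described; full statistics went to the 4 highest and 4 lowest by the mean of both ratios and the 3 highest and 3 lowest by shRNA 1 over shRNA 2. From other lists, at most the 2 highest and 2 lowest genes with at least 5 CPM by the mean of both ratios were eligible, plus MYC. KRT5 and the markers of other cell types were named after their values were seen, to show which are near 0. The fit was also run on simulated data in which genes changed by large folds and the same way in both shRNA lines. That run does not speak to smaller or opposite shifts such as those of the members. Alternatives were another scaling, no scaling, no filter, DESeq2 1.42.0, edgeR's likelihood ratio test, the prior count, the fold and leaving out each shRNA library.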

Additional observations from a re-analysis of the deposited data

Results flagged for a closer look

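The median log2 ratio of the 32 members to the control was 0.54 under the label shRNA 1 and -0.56 under the label shRNA 2. It was noted because the libraries that carry an shRNA against the same target lie on opposite sides of the 1 control they share. With 1 library a line the difference was not tested. The SNORD12B count, 15 and 1 under the labels shRNA 1 and shRNA 2 and 7 in the control, has the same order of libraries, and its part in the result was not tested.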

How the results depend on the processing

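No paired analysis was possible because the control line has no replicate number and 1 library. No member was called by any test run. Over all genes, 0 higher and 0 lower calls of edgeR's quasi-likelihood test compare with 1 and 14 by DESeq2, 2 and 36 by edgeR's likelihood ratio test and 4 and 37 among all genes with any count; with no scaling factor, 1 gene was lower. The median fitted log2 fold change of the members, 0.08, was -0.56 without the library labelled shRNA 1 and 0.54 without the library labelled shRNA 2, so its sign rests on which line is kept. PES1, at 0.01, was the only member whose fitted value changed sign under another test, scaling or filter (-0.0035 with no filter). At a log2 ratio of at least 0.32 in size, 25 members stood above the control under the label shRNA 1, and 23 below and 1 above it under the label shRNA 2. The share of all tested genes at this lower cut was not computed. At 2-fold, 1 member stood above the control under the label shRNA 1 and 1 below it under the label shRNA 2. Among all tested genes 3.74% and 3.46% stood as far. Among the 18 members with under 5% of exonic bases shared and under 5% of counts in pseudogenes, chosen after the data were seen, 7 stood 1.5-fold above the control under the label shRNA 1 and 9 below it under the label shRNA 2. Those distances were reached by 10.8% and 9.92% of all tested genes. The medians of the members moved by little with scaling, to 0.56 and -0.55 with no scaling factor. Several members lay close to the 1.5-fold cut, so counts at that cut moved more. With no scaling factor, 14 members instead of 12 stood 1.5-fold above the control under the label shRNA 1. Under the label shRNA 2, 11 instead of 13 stood 1.5-fold below it. The share of all tested genes at this cut with no scaling factor was not computed.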
